A study of Caenorhabditis elegans with 2 samples.

Results

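Autosomal promoters that point in one direction were bound by the TATA-binding protein TBP-1 at 1065 peaks, 27.6% of those reproducible in young adult Caenorhabditis elegans; the other 2797 reproducible peaks did not meet the rule. A peak belonged to them when it lay on 1 of the 5 autosomes, when annotated 5' ends of protein-coding transcripts lay within 500 bp of its summit on 1 strand only, and when no 5' end of a tRNA, snoRNA, snRNA or rRNA gene lay within that distance. The choice used positions and the annotation, not the strength of the peaks. These promoter peaks pointed at 1013 nearest genes, and 518 of those 1065 peaks faced a gene on the plus strand and 547 a gene on the minus strand. For comparison, 352 autosomal peaks had protein-coding 5' ends on both strands within reach, and 291 had a tRNA 5' end.

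Chromatin immunoprecipitation followed by sequencing was done on whole animals of strain OP746, in 1 group of 2 biological replicates. All animals carried the unc-119(tm4063) mutation and the transgene wgIs746, which holds tbp-1 with a C-terminal TY1, EGFP and 3xFLAG tag and an intact unc-119 gene. Both replicates were mixed-sex young adults, 65 hours old, grown from first-stage larvae that had been starved after bleaching, and sonicated chromatin was precipitated with an antibody against GFP. No untagged strain and no second condition were analysed here, and whole animals mix all tissues. There was no contrast to test, so values are descriptions, each set beside the same value in the list of each replicate.

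TBP is a general transcription factor: it binds DNA upstream of the start of transcription, bends it, and nucleates the assembly of the machinery of RNA polymerase II, and it also serves RNA polymerases I and III. In C. elegans many pre-mRNAs lose their first stretch, the outron, when a spliced leader is joined to a splice acceptor, so the annotated 5' end of such a gene marks the acceptor and not the point where transcription began. Many worm genes lie in operons, runs of closely spaced genes on 1 strand that are transcribed together from a promoter before the first gene, while the genes inside the run are usually trans-spliced.

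The DNA under 5 of these promoter summits gives examples of windows that hold a motif match. Each is the summit base with 50 bases to each side, read from the RefSeq copy of the ce11 (WBcel235) genome on the strand of the gene. Capitals mark matches, on either strand, to the letters TATAAA, to CGCGCC, or to the A box, an internal promoter element of tRNA genes that was added to the search after the strongest windows had been seen.
sms-3, summit upstream, chrIII:1601583-1601683, minus strand: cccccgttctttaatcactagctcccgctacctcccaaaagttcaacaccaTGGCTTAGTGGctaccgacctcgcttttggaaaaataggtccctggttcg
sms-3, summit in an intron, chrIII:1599083-1599183, minus strand: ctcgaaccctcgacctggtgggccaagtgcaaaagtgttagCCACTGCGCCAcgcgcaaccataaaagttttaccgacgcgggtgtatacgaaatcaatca
W08A12.2, chrV:3686076-3686176, minus strand: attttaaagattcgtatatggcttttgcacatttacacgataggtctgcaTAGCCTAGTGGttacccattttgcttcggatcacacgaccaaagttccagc
tos-1, chrV:9344233-9344333, minus strand: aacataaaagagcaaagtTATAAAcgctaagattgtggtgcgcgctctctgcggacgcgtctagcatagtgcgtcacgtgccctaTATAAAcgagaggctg
cdc-48.1, chrII:10563524-10563624, minus strand: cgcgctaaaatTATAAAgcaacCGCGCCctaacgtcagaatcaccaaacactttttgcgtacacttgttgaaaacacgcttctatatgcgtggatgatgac
The windows at sms-3, a gene of the sphingomyelin synthase family, and at W08A12.2 hold an A box but no TATAAA. The tos-1 window holds TATAAA on both sides of the summit. The cdc-48.1 window, at the gene of an AAA ATPase that extracts ubiquitylated proteins, holds TATAAA and CGCGCC. Stronger summits at sms-3 (rank 105) and zip-7 (rank 137) are not shown, and neither had any of these motifs within 100 bp.

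Another 2 sequences run from 20 bases before the summit to the base before the annotated 5' end, on the same genome and on the strand of the gene, and show how far upstream TBP-1 sat when that end follows a splice acceptor. Capitals mark the acceptor, TTNCAG.
eelo-2, chrIV:17249887-17250130, plus strand: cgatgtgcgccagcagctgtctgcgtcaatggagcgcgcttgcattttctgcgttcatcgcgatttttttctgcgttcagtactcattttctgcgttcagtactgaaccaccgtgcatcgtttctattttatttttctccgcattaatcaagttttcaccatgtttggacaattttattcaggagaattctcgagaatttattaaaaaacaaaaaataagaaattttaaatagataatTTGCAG
cpg-1, chrIII:4489108-4489358, plus strand: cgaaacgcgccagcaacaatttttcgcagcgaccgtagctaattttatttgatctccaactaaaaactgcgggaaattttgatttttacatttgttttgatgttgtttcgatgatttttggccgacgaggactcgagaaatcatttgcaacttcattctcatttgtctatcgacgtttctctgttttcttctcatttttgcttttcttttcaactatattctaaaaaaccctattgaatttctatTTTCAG
The sequences measure 244 and 251 bases. The gene cpg-1 encodes a chitin-binding protein of the eggshell. The summits lay 224 and 231 bp upstream of the annotated ends, each of which directly follows the acceptor.

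Along the signal ranking these promoters were scarce at the top and common below. The authors' signal value, whose scale is not stated, served only for ranks within a list, and a percentile of 100 is the strongest peak. Only 8 of the promoter peaks were among the 386 strongest peaks, and 378 (35.5%) were in the upper 50% of the list. In steps of 10% from the strongest peaks down, the list held 8, 27, 98 and 113 of them, and each later step held 127 to 150. Their median percentile was 38.2, with the middle 50% between 19.6 and 58.2; it was 37.6 in replicate 1 and 39.0 in replicate 2. Peaks with protein-coding ends on both strands ranked higher by the median, with a percentile of 48.6, and 47.3 and 47.2 in the replicates. They were scarce at the top as well, with 0 of 352 among the 386 strongest peaks. Peaks at tRNA genes stood far above both kinds of promoter, at a median of 91.9 in each of the 3 lists. The gap between promoters of the 2 kinds was seen in every list and exceeded the spread of either kind between the replicates. That spread does not measure the variation among promoters.

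**Figure D1:**
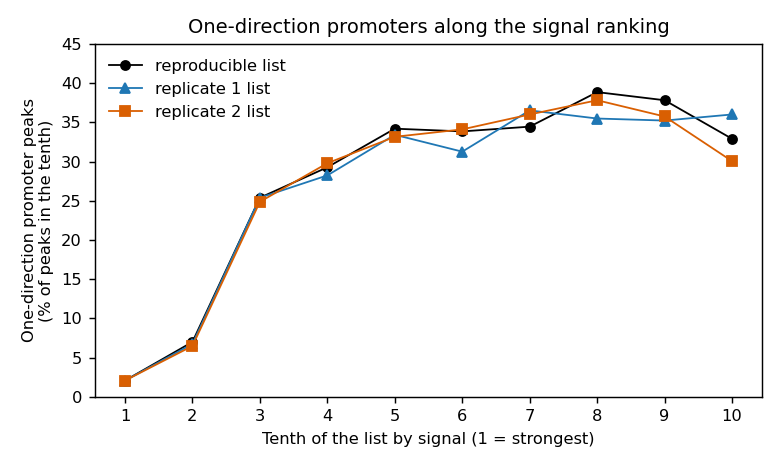
Share of one-direction promoter peaks (%, vertical axis) in each step of 10% of the ranked list (horizontal axis, 1 the strongest), for the reproducible list and for as many of the strongest peaks of each replicate. In the reproducible list the share is 2.07% in step 1 and 38.9% in step 8, and the replicate lists follow the same course.

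The same promoters came up in both replicates, but not all with equal strength. The reproducible list was itself derived from both replicates and the pooled list. Agreement between the replicates at these promoters is thus partly built in and is no independent observation. The list of each replicate was taken down to the length of the reproducible list. Strong peaks of this kind were met by 754 of the promoters (70.8%) in replicate 1 as well as in replicate 2, by 269 (25.3%) in a single replicate, and by 42 (3.94%) in none. Almost all overlapped some peak of the full lists of 30000, 1062 in replicate 1 and 1057 in replicate 2. Summits fell close together: for the 1054 promoters with a summit in both replicates the median distance was 21 bp, and 847 (80.4%) were within 50 bp. The distance was 11 bp in the strongest 25% of the promoters and 32.5 bp in the weakest 25%. Across the promoters, the ranks in the 2 replicates had a Spearman correlation of 0.72, a description over positions that share the same 2 libraries. The number of reads behind the lists is unknown, so weak promoters cannot be given a counting error.

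Of the 8 promoter peaks in the strongest 10% of the list, 7 had their summit inside an annotated gene, noncoding RNA or pseudogene. At tba-7, an alpha-tubulin gene on chromosome III, the peak ranked 31 in the reproducible list, 36 in replicate 1 and 28 in replicate 2. Its summit lay 311 bp inside the gene, in an exon of the noncoding RNAs T28D6.13 and T28D6.15. The gene sms-3 had 3 such peaks, at ranks 105, 198 and 248, whose summits lay 184 bp and 151 bp downstream and 489 bp upstream of annotated 5' ends. Their ranks were 99, 198 and 243 in replicate 1 and 115, 189 and 252 in replicate 2, so the order held. A peak in an intron of zip-7, a gene of the bZIP transcription factor family, ranked 137, 133 and 141 in the 3 lists, 448 bp downstream of the nearest 5' end. The peak nearest to W08A12.2 ranked 174, 164 and 179 and lay in an intron of another gene, W08A12.3. Near Y53G8AL.4 the summit, at rank 250, was in the annotated hairpin of cel-mir-4936, and near Y69A2AR.31, at rank 263, in a pseudogene.

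Some of these promoters held boxes of the kind that RNA polymerase III genes carry inside their transcribed part. The search covered the A box and the B box, each called by name, on either strand within 100 bp of the summit. Of the 8 promoters in the strongest 10% of the list, 6 held at least 1 of the boxes, and so did 8 of 27 in the next 10% and 12 of 98 in the step after that, while each later step held 3 to 8. The A box was added because of the strongest windows, so its count in them is no independent observation. The B box alone stood at 3 of 8 promoters in the strongest 10%, at 5 of 27 in the next 10% and at 5 of 98 in the step after that, with 2 to 6 in each later step, and at 3, 5 and 5 in replicate 1 and 3, 4 and 5 in replicate 2 in the same steps. Over all 1065 promoters the share was 6.20%, against 2.72% in windows 1000 bp to each side, 1.42% at two-strand promoters and 1.05% in windows at all eligible genes described below. At tRNA peaks the share was 93.5%, and at autosomal peaks away from protein-coding and small RNA ends it was 25.1%. The 66 promoters with a box had a median percentile of 53.7, against 37.0 for the other 999. In the replicates the values were 52.4 against 36.7 and 62.8 against 37.4. Since strong windows prompted the A box search, this difference in rank is no independent observation either. For the 37 promoters with a B box the median percentile was 50.9, against 37.8 for the other 1028. In the replicates the B box values were 47.5 against 37.1 and 60.5 against 38.3. Of the 66 with an A box or a B box, 39 had their summit inside the nearest gene. The sms-3 peaks at ranks 198 and 248 held both boxes. A box match is a match of letters and does not show that a noncoding gene is present.

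The pcrg-1 peak on chromosome II ranked 466, 472 and 453, with its summit 318 bp upstream, near the 5' end of the noncoding RNA mrpr-1. The peak at rpl-3, which encodes a protein of the large ribosomal subunit, ranked 535 in the reproducible list, 559 in replicate 1 and 512 in replicate 2, with summits 276, 276 and 273 bp upstream in those lists. The peak at Y43F8B.17 ranked 582, 584 and 580, with summits 25, 24 and 49 bp upstream. The tos-1 and cdc-48.1 peaks ranked 592 and 619, and at cdc-48.1 the summits lay 167, 164 and 168 bp upstream. At hsp-1, the gene of a constitutive Hsp70 chaperone, the ranks were 744, 760 and 743 with summits 386, 386 and 388 bp upstream. At tbp-1 itself, whose copies on the transgene also yield DNA that maps to the gene, the peak ranked 1585, 1876 and 1570, with summits 87, 74 and 107 bp downstream of the annotated 5' end, in an exon. The part of the transgene copies in that peak was not tested.

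TBP-1 sat mostly upstream of the annotated 5' end. The median summit offset from the nearest 5' end was -164 bp, negative being upstream, with the middle 50% between -279 and -39 bp, and the replicate lists gave -162 and -155 bp (mean -158.5 ± 4.95 bp, SD, n = 2). Of the 1065 summits, 864 (81.1%) were upstream. The 50 bp steps with the most summits were 201 to 250 bp upstream, with 131, and 151 to 200 bp upstream, with 121. Another 129 summits lay 0 to 250 bp downstream, and these ranked lower, at a median percentile of 27.2 (26.4 and 31.8 in the replicates), against 39.2 for the 546 that lay 1 to 250 bp upstream (39.01 and 40.02). A further 72 lay over 250 bp downstream, and 24 of them held an A box or a B box. Across all promoters the signal percentile and the offset were hardly related, with a Spearman correlation of -0.07. Of the summits, 720 lay between protein-coding genes, 295 inside the nearest gene, 24 inside another gene on the same strand and 26 inside a gene on the opposite strand.

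The kind of 5' end went with the offset. At 360 promoters (33.8%) the letters TTNCAG stood directly before the annotated 5' end, the pattern of a splice acceptor, and there the median offset was -224 bp (middle 50% from -305 to -149 bp). The replicate lists gave -224 and -214 bp. At the other 705 promoters the summit lay at a median of 114 bp upstream. The difference between the medians was -110 bp, and -111 and -110 bp in the replicates. The replicate lists share the annotation and most promoters, so their small spread does not measure the variation among promoters. Only 2 summits at acceptor ends fell in the last 50 bp before the end, against 90 at the other ends, and the counts were 4 against 77 in replicate 1 and 5 against 82 in replicate 2. When the annotated 5' end was the start codon, as at 151 promoters, offsets spread widely, from -286 to 238.5 bp for the middle 50%, and 27 of those promoters (17.9%) held an A box or a B box. The difference between acceptor and other ends stayed between -108 and -112 bp without B box promoters, without promoters near other noncoding ends, and with 5' ends near the start of the gene model, 3 settings chosen after seeing the data.

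**Figure D2:**
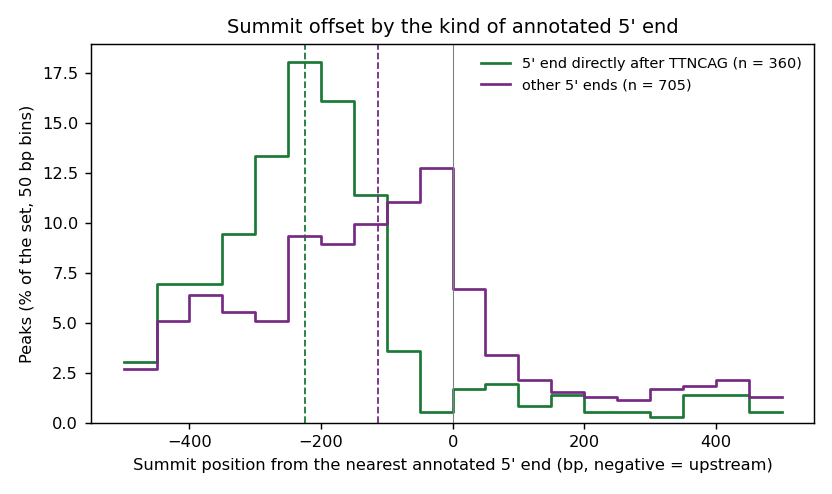
Distribution of the summit position from the nearest annotated 5' end (horizontal axis, bp, negative upstream) for 360 promoters whose 5' end follows TTNCAG directly and 705 others (vertical axis, % of each set per 50 bp). Dashed lines are the medians, -224 and -114 bp, and the acceptor set has few summits in the last 100 bp before the end.

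As a background for the promoters, all 15170 autosomal protein-coding genes whose own start met the same strand and small RNA conditions were taken as eligible. For a gene the conditions were applied around its start, and for a peak around its summit. An eligible gene whose only nearby peak failed the conditions at its summit thus counts as not occupied. This can depend on the arrangement of neighbouring genes, and its part in the shares given here and below was not tested. Of these, 995 had such a summit within 500 bp of a 5' end (6.56%), 974 in the list of replicate 1 (6.42%) and 958 in that of replicate 2 (6.32%). Genes whose 5' end followed an acceptor were occupied more often, 350 of 2872 (12.2%, with 11.8% and 11.1% in the replicates), and genes annotated from their start codon less often, 95 of 3516 (2.70%). Occupancy ran from 8.86% on chromosome III and 8.36% on chromosome I to 4.05% on chromosome V. It was 7.996% for genes with a named symbol and 4.80% for genes known only by a sequence name.

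Genes closely followed by another gene on the same strand were occupied more often than all eligible genes. Where the next gene on the same strand began within 100 bp downstream, 93 of 627 eligible genes (14.8%) had a summit, with 14.7% in each replicate. The share was 12.5% (13.1% and 12.6%) for a gap over 100 and up to 200 bp, 7.46% for 201 to 500 bp, and 4.49% for 501 to 1000 bp. Genes with a same-strand neighbour within 500 bp downstream only, the place of the first gene of an operon, were occupied in 188 of 1957 cases (9.61%; 9.45% and 9.40% in the replicates), and genes with no such neighbour on either side in 504 of 9910 (5.09%; 4.98% and 4.57%). Among genes with an acceptor end, the share was 14.8% for 452 genes in the first place and 10.5% for 1722 genes with no close neighbour. It was also 14.8% (13.5% and 14.9% in the replicates) for 698 such genes with a same-strand neighbour within 500 bp upstream, so the first place did not stand out among acceptor ends. An example of a closely followed gene is eif-3.C on chromosome I, which encodes a subunit of the translation initiation factor eIF3. Its downstream neighbour T23D8.3 starts after 111 bp. The same-strand gene sys-1 ends 401 bp before it, so eif-3.C has close neighbours on both sides and is not in the first place. The eif-3.C peak ranked 871, 890 and 881, with summits 237, 237 and 236 bp upstream.

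Promoters with a close same-strand neighbour upstream were occupied as well. A same-strand gene ended within 500 bp before the target at 295 of the 1065 promoters (27.7%; 27.3% and 30.9% in the replicates), while 21.8% of the eligible genes have such a neighbour. Counted over genes, 303 of 3303 with that spacing were occupied (9.17%), against 692 of 11867 others (5.83%). The share peaked at gaps of 201 to 500 bp, with 11.5% (11.2% in each replicate). At gaps of up to 100 bp the share was 6.61% (6.21% and 8.37%). That was near the share of all eligible genes in the reproducible list and replicate 1 (6.56% and 6.42%), and above it in replicate 2 (6.32%). Genes with same-strand neighbours within 500 bp on both sides, the place of an inner operon gene, were occupied in 113 of 885 cases (12.8%; 13.4% and 12.9% in the replicates), a higher share than that of first genes in each list. An operon was not identified as such, since only spacing was used.

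**Figure D3:**
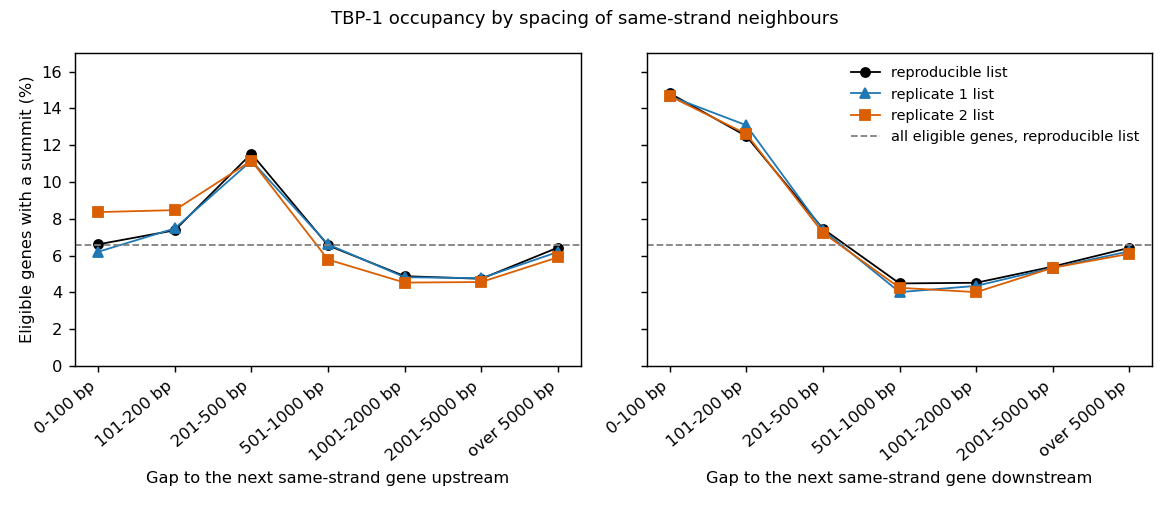
Share of eligible genes with a summit (%, vertical axis) by the gap to the next same-strand gene upstream (left) and downstream (right), for the reproducible list and both replicate lists, with the share over all eligible genes, 6.56%, as a dashed line. The share is highest at downstream gaps of up to 100 bp, 14.8%, and at upstream gaps of 201 to 500 bp, 11.5%.

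Where the upstream gap was smallest, the median summit lay close to the 5' end. The median offset was -10 bp at the 113 promoters with a gap of up to 200 bp, and -5 and -7 bp in the replicates. It was -168 bp for gaps of 201 to 500 bp, -262 bp for 501 to 1000 bp and -181 bp for gaps over 5000 bp. The 21 closely spaced promoters with an acceptor end had a median offset of 6 bp, and 5.5 and 0 bp in the replicates, in contrast to -204 bp at the 85 acceptor ends with a gap of 201 to 500 bp. Closely spaced promoters were also weaker, with a median percentile of 29.6 (27.4 and 29.6 in the replicates), and had a lower GC content, 41.6% in the median window of 50 bases to each side. At gaps of 201 to 500 bp the median percentile was 42.3. The gene tbp-1 belongs to the closely spaced set, with the gene T20B12.3 ending 128 bp before it and trd-1 beginning 105 bp after it. At R148.8, which mks-1 precedes by 188 bp, the peak ranked 626, 616 and 629, and its summit lay far inside the gene, 434, 428 and 434 bp downstream, with a B box within 100 bp. At eelo-2 the upstream gene ZK550.2 ends 381 bp before the target, and the peak ranked 703, 709 and 703, with summits 224, 238 and 218 bp upstream, in the sequence shown earlier.

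The DNA at the summits was marked by GC content more than by TATAAA. Mean GC content in windows of 51 bases was 47.8% at the summit (47.7% and 46.9% in the replicates), fell to 32.6% at 125 bp on the upstream side and to 33.7% at 125 bp on the side of the gene. Two-strand promoters had a steeper profile, from 50.7% at the summit to 30.1% and 29.4% at the same distances. Windows at the same offset from all eligible genes had 33.8%. The median GC content within 50 bases of the summit rose with signal, from 41.6% in the weakest 25% of the promoters through 43.6% and 46.5% to 49.5% in the strongest 25%, and the replicates gave 41.6% and 41.6% in the weakest and 48.5% and 48.5% in the strongest. The part of base composition in the signal was not tested.

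**Figure D4:**
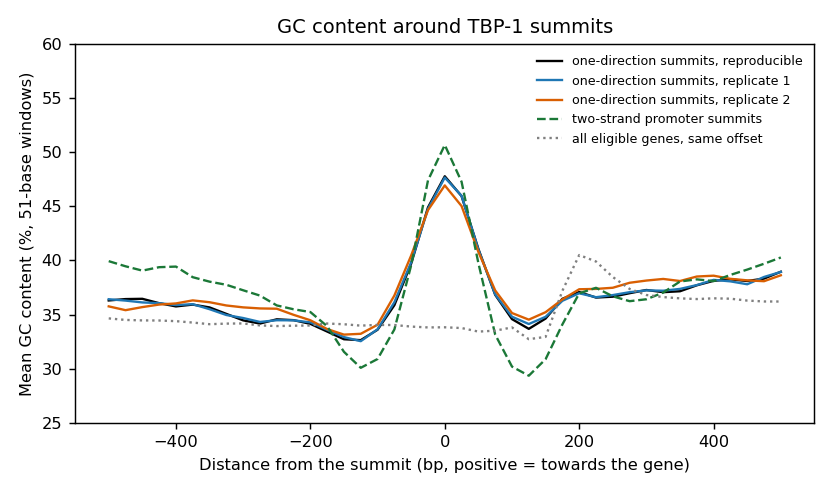
Mean GC content (%, vertical axis, windows of 51 bases) against the distance from the summit (bp, horizontal axis, positive towards the gene) at one-direction promoters of the 3 lists, at two-strand promoters, and at all eligible genes centred 164 bp upstream of the 5' end. One-direction promoters reach 47.8% at the summit between troughs near 33%, and the windows of all genes stay at 33.8% there.

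TATAAA, the core of the TATA box, was about as frequent under the summits as beside them. It stood within 100 bp of the summit, on either strand, at 207 promoters (19.4%; 17.3% and 17.4% in the replicates), at 17.3% of windows 1000 bp to each side, at 15.6% of two-strand promoters and at 25.3% of windows at all eligible genes. In the 100 bp before the annotated 5' end, in the sense direction, 9.20% of the promoters had it and 12.8% of all eligible genes. Acceptor ends made up 33.8% of the promoters and 18.9% of the eligible genes. There the stretch precedes an acceptor and not a start of transcription, so these shares compare unlike stretches. The median percentile was 37.0 with TATAAA and 38.3 without it. Of the strongest 25% of the promoters 15.4% had it and of the weakest 25% it was 20.6%. The share was 17.8% at acceptor ends and 20.3% at other ends. TATAAA consists of A and T only, and the part of the GC content given above in these shares was not tested. Among the strongest with a match were pcrg-1, tos-1, cdc-48.1 and Y65B4A.2, whose peak at rank 473 lay in its own intron. The Y65B4A.2 summit also had an A box within 100 bp, and the pcrg-1 summit lay near the noncoding RNA mrpr-1.

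Of 4 other short motifs, 3 were more frequent under the summits than beside them. GAGAGA stood at 27.7% of the promoters (27.7% and 25.8% in the replicates), against 11.8% of the windows to the side and 14.7% of the windows at all eligible genes. CGCGCC stood at 15.02% (14.1% and 14.8%) against 2.77% and 3.12%, and at 24.4% of two-strand promoters. Promoters with CGCGCC ranked higher, at a median percentile of 49.7 against 36.1 without it, and its share was 24.1% in the strongest 25% and 9.74% in the weakest 25%. GGGCGG, the core of a GC box, stood at 8.54% (9.29% and 9.59%) against 2.11% and 4.85%. A run of 7 T bases stood at 30.9%, against 33.1% to the side and 42.6% at all eligible genes. CGCGCC and GGGCGG consist of G and C only, and the run of T holds neither. The part of the GC content given above in the shares of these motifs was not tested.

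Occupancy varied widely between gene lists, from 54.9% for cytosolic ribosomal proteins to 0 for the body muscle, neuron and homeobox lists in the reproducible list of peaks. Among 21 gene lists drawn by symbol, cytosolic ribosomal protein genes had the highest share, 28 of 51 eligible genes (54.9%), with 27 and 25 in the replicates, beside 6.56% over all eligible genes. Counted over the genes of this list nearest to a summit, eligible or not, there were 33 peaks at 31 genes. These peaks had a median percentile of 61.4 and a median offset of -265 bp, and 27 were shared by both replicates. At rpl-35 the peak ranked 622, 634 and 600. Translation factors followed with 8 of 23 (34.8%; 8 and 5), among them eif-3.C and iff-2, an eIF5A gene with a peak at rank 795. Respiratory chain genes had 6 of 23 (26.1%; 6 and 8), with cox-5A and cox-5B, both for cytochrome c oxidase subunits, at ranks 745 and 743. Proteasome genes had 5 of 21 (5 in replicate 2, 6 in replicate 1), tubulin genes, such as tba-2 at rank 1055, 3 of 9 in each list, and genes of RNA polymerase II and its general factors 6 of 30 (5 in each replicate). The tubulin peaks include that of tba-7, with its summit 311 bp inside the gene and an A box within 100 bp. Of the proteasome genes, rpn-11, a deubiquitylating subunit gene, had its summit 6 bp inside the gene at rank 1282, and pas-6, an alpha subunit gene, had its summit 228 bp upstream at rank 2491. The RNA polymerase II list holds tbp-1, taf-4, a TFIID subunit gene at rank 846, and rpb-11, a polymerase subunit gene at rank 1148.

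Housekeeping lists with smaller shares were the V-ATPase, with 3 of 16 (2 and 3 in the replicates), mitochondrial ribosomal proteins, with 6 of 49 (6 and 5), splicing, with 2 of 18 in each list, and chaperones, with 1 of 15 (2 and 1). Of their members, vha-9, a proton pump subunit gene, had its summit 239 bp upstream at rank 1461. The summit at prp-8, a core spliceosome protein gene, lay 335 bp upstream at rank 1344, and that at rsp-6, an SR protein gene, 175 bp upstream at rank 1584. The mitochondrial genes mrpl-28 and mrpl-55 had peaks at ranks 1500 and 1879. Histone genes had 1 of 8, since of 72 histone genes 68 are autosomal and only 8 meet the strand and small RNA conditions. That 1 gene was his-37, an H4 gene whose peak ranked 704. Peaks also pointed at his-47, his-58, his-59 and his-60, which are not eligible. The his-59 peak was at rank 2531 with its summit 448 bp downstream (393 and 495 bp in the replicates).

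Of the tissue lists, the germline and embryo list was occupied in 14 of 53 cases (26.4%; 10 and 14 in the replicates), beside 6.56% over all eligible genes. It includes cpg-1, at rank 812 with its summit 231 bp upstream, and mex-1, an embryonic RNA-binding protein gene, at rank 1183 with its summit 193 bp upstream. The intestine list had 2 of 7 in every list, act-5, an intestinal actin gene at rank 2473, and vit-6, a yolk protein gene at rank 2912. Ranks of vit-6 were 2740 and 2392 in the replicates and its summits lay 201, 31 and 174 bp downstream, so the 3 summits did not coincide. Hypodermis and cuticle genes had 3 of 122 in every list, and in the reproducible list all were collagen genes. Among them were col-40, at rank 947 with its summit 432 bp upstream, and col-72, at rank 1997 with its summit 455 bp downstream. The col-40 summit had a B box within 100 bp. No eligible gene of the body muscle list, of 9, or of the neuron list, of 78, had a summit in the reproducible list, and 2 neuron genes had one in replicate 2. The homeobox list had none of 42 in any list. Fewer cells of a tissue and less binding per cell cannot be told apart in whole animals.

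Large gene families had shares below the 6.56% over all eligible genes. Chemoreceptor genes had 5 of 1146 (0.436%; 6 and 3 in the replicates), F-box A genes 2 of 126, among them fbxa-106 at rank 1649, C-type lectin genes 3 of 208 and nuclear hormone receptor genes 10 of 235 (9 and 8). Several of their strongest peaks held a box of the polymerase III kind. The peak at nhr-41, at rank 722, lay 376 bp inside the gene with a B box, the peak at nhr-59 at rank 1354 lay 300 bp inside with an A box and a B box, and that at srd-66 at rank 810 lay 390 bp upstream with an A box. An A box also stood at srh-284, and an A box and a B box at clec-115.

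**Figure D5:**
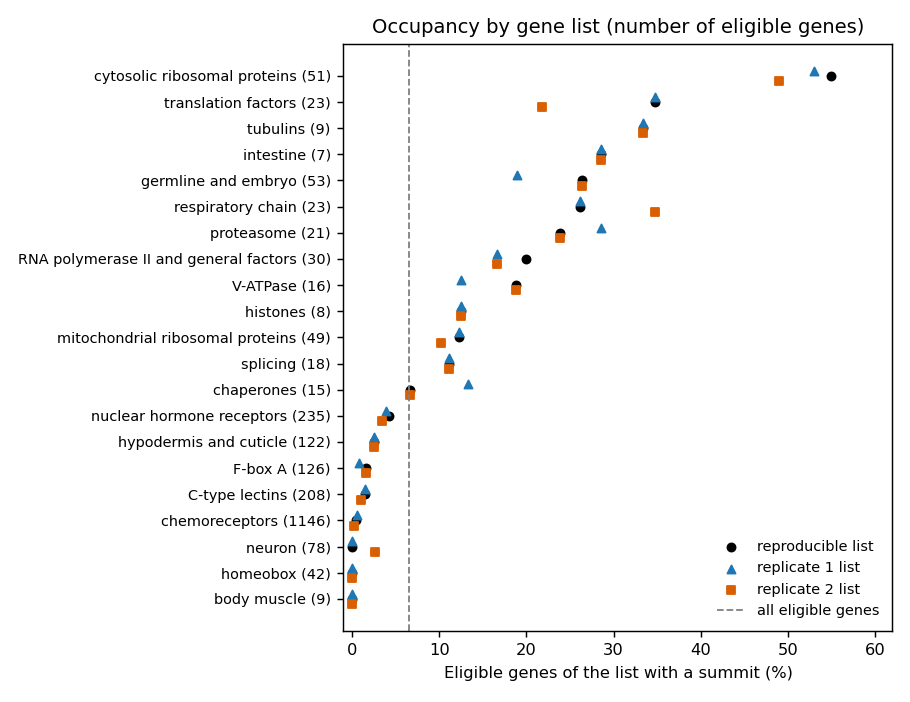
Share of eligible genes of each list with a summit (%, horizontal axis), with the number of eligible genes in parentheses, for the reproducible list and both replicate lists, and the share over all eligible genes, 6.56%, as a dashed line. Cytosolic ribosomal protein genes lie at 54.9% and chemoreceptor genes at 0.436%.

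The promoter just inside the limit of 500 bp was the peak 500 bp upstream of aqp-10, an aquaporin gene, at rank 2720 (2490 and 4374 in the replicates), and the peak just outside lay 501 bp upstream of F26H11.4, at rank 3804 (4511 and 4924). There were 41 promoters with the nearest end over 450 bp away, at a median percentile of 36.1, and 40 further peaks with it over 500 and up to 550 bp away, at 26.5. Within 1000 bp, 144 of the 1065 promoters had a protein-coding end on the other strand and 22 a small RNA end, and 899 still met the rule. Of all the promoters, 134 (12.6%) had another noncoding or pseudogene 5' end within 500 bp, and these had a median percentile of 44.3, against 37.1 for the rest. More than 1 peak pointed at 46 of the genes, and 18 promoters had more than 1 gene in reach, so peaks and genes are not independent units.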

How the data were processed

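Peak lists were used as deposited: 1 list per replicate and 1 pooled list of 30000 peaks each, and the reproducible list made by the irreproducible discovery rate procedure, on ce11, per the file headers. The signal column came from the authors with no stated scale and gave ranks only. In the reproducible list the deposited −log10 q value stood at 3.96 throughout and gave no ranks. The aligner is not given in the sources used here, nor are the caller and the depth. A control alignment is named in the headers and was not used here.

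Summits were joined to 5' ends of Ensembl release 115 transcripts on WBcel235, the same build as ce11. Each replicate enters through its strongest peaks, as many as the reproducible list holds, and the spread between them is that of 2 biological replicates. No test across promoters was run, since positions are not replicates. The steps were checked on made-up genes and peaks with known answers. Of the promoter peaks, 718 (67.4%) are 330 bp wide. Gaps run from the 3' end of the nearest same-strand protein-coding gene to the 5' end, and the rule for eligible genes uses the 5' end of the gene model.

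Genes named are tbp-1, the targets of the 12 strongest promoter peaks shared by both replicates, of the 4 strongest with close upstream spacing, of the 4 strongest with TATAAA, of up to 2 peaks per gene list, and the peaks on each side of the 500 bp limit. F26H11.4 is the gene just outside. The promoters, lists and rules were chosen with earlier results of these data known, and the A box search and the checks of the acceptor difference were chosen after seeing the data. Alternatives changed the window, the list, the 5' ends, the spacing and the overlap. The software was Python 3.11.15, numpy 2.4.6, pandas 2.3.3 and matplotlib 3.10.9.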

Additional observations from a re-analysis of the deposited data

How the results depend on the processing

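With a window of 250 bp the median offset was -121 bp, the median percentile 39.4, the share of eligible genes occupied 4.95% and the share with TATAAA 19.3%. With 1000 bp the offset was -186.5 bp, the occupied share 8.10% and the TATAAA share 19.1%. The upper 50% of the list held 378 of the promoters, with an offset of -176.5 bp, a percentile of 65.3 by construction, 2.43% of genes occupied and TATAAA at 18.5%. With gene-model 5' ends, 30.8% had a same-strand gene ending within 500 bp upstream, 6.05% of genes were occupied and 19.3% had TATAAA. With the most upstream 5' end in reach the offset was -159 bp. A same-strand gene ended within 200 bp upstream at 10.6% and within 1000 bp at 39.1%. TATAAA stood within 50 bp of the summit at 8.17%. An overlap of 50% of both peaks left 58.2% shared by both replicates. Leaving out 1 replicate gave 1043 to 1044 promoters, offsets from -162 to -155 bp, percentiles from 37.6 to 39.0, upstream spacing from 27.3% to 30.9%, occupancy from 6.32% to 6.42% and TATAAA from 17.3% to 17.4%. The cause of these shifts was not tested. No value above changed sign. No paired analysis was possible because there is only 1 group. Depth limits all counts, since a promoter without a peak may lie below the rank limit.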
